A study of Mus musculus with 5 samples.

Results

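The genes described here encode a subunit of the interleukin-25 receptor, Il17rb, and relatives in the interleukin-17 system: the receptor Il17rd, the cytokines Il25, Il17a and Il17f, and the adaptor Traf3ip2. They were read in thymocytes that carry CD4 but not CD8 (CD4SP cells). These 6 genes were chosen by name from earlier results of the same comparison, PLZF transgenic against wild type arrays, so their differences are given as a description and are not tested. All 6 had a row with a single gene symbol, among 12267 such genes on the array. Il17rd had 3 rows and the row with the highest mean was used.

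The 3 arrays of PLZF transgenic cells and the 2 arrays of wild type cells each came from pooled mice of the C57BL/6J background aged 4 to 6 weeks, and the CD4SP cells were isolated from the thymus by flow cytometry. PLZF, a zinc finger protein, is the transcription factor that NKT cells and some other innate-like lymphocytes need for their effector programme. The sources used here do not name the promoter that drives the transgene. The arrays are labelled as biological replicates. Values are RMA intensities from Affymetrix mouse exon arrays, taken as log2(intensity + 1). In bulk RNA of this kind, more cells of a type and more RNA per cell cannot be told apart.

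Interleukin-25, also called IL-17E, signals through a receptor made of IL-17RB and the shared chain IL-17RA, and drives type 2 responses. In the mouse thymus, IL-17RB marks NKT cells that respond to interleukin-25. IL-17A and IL-17F are cytokines of Th17 cells, gamma-delta T cells and a subset of NKT cells, and signal through IL-17RA with IL-17RC. Act1, the product of Traf3ip2, binds the receptors of this family through a domain they share and passes the signal to TRAF proteins. IL-17RD, also known as Sef, dampens fibroblast growth factor signalling.

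Array medians lay between 59.0 and 60.3 intensity units. In 67.2% of the genes, several arrays held identical values (within 0.000005 on the log2 scale), and 4 of the 6 genes described here were among them. As a yardstick of background brightness, 514 olfactory and vomeronasal receptor genes had means with a median of 4.18 and a 95th percentile of 6.58 on the log2 scale. Of the genes described here, 2 (Il17rb and Traf3ip2) had means above that 95th percentile and 4 below it. Of 13 listed T cell markers, 7 were measured, and all 7 lay above it. Limma called 0 of the 7 higher, 3 lower and 4 neither, against 1.72% higher and 3.02% lower over all genes. Cd2, Cd5 and Cd28 were lower in transgenic cells, with log2 differences of -1.11, -0.36 and -0.21 (limma adjusted p = 0.00955, 0.0437 and 0.0144). The differences of Cd247, Cd6, Themis and Zap70, which were not called, were -0.22, -0.02, -0.02 and 0.01. Cd4, Cd8a, Zbtb16, which encodes PLZF, and Il17ra were not analysed here, so neither the sort nor the genotype is checked by its own gene. In 8 lists of markers of other cell types the sort could hold, 28 of 51 genes were measured, and limma called 0 higher and 0 lower over all genes. At an unadjusted p under 0.05, 1 of the 28 was higher and 5 were lower, where 7.07% of all genes were higher and 9.74% lower by the same rule.

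Il17rb was the gene of the 6 whose intensity differed most between genotypes. It read 2697, 3010 and 3094 intensity units in the 3 transgenic arrays and 860 and 1109 in the 2 wild type arrays. Every transgenic array was thus above both wild type arrays, and the lowest transgenic value lay well over the highest wild type value. On the log2 scale the mean was 11.52 ± 0.10 in transgenic cells (SD, n = 3) and 9.93 ± 0.26 in wild type cells (SD, n = 2). The difference was 1.58 ± 0.15 (SE), or 3.00-fold. With 1 array left out in turn the difference ran from 1.40 to 1.77. Il17rb had a clear signal in wild type cells too, above the olfactory receptor yardstick on both arrays.

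Traf3ip2 also had separate groups, with a smaller gap. It read 305, 324 and 305 intensity units in transgenic cells and 268 and 294 in wild type cells. The 3 transgenic values were all higher, and 2 of them were identical. The log2 difference was 0.15 ± 0.06 (SE), or 1.11-fold, and with 1 array left out it ran from 0.08 to 0.21.

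The 3 cytokine genes were dim and showed little difference. Il25 read 81.2, 79.1 and 78.5 intensity units in transgenic cells and 80.1 and 75.1 in wild type cells, so the groups overlapped. Il17a stood at 53.5 in 4 of the 5 arrays and at 57.7 in transgenic replicate 3. Il17f stood at 66.5 in 4 of the 5 arrays and at 68.1 in transgenic replicate 1. The log2 differences were 0.04 ± 0.04 for Il25, 0.04 ± 0.04 for Il17a and 0.01 ± 0.01 for Il17f (SE), and each of the last 2 rests on 1 transgenic array. All 3 genes lay below the yardstick of background brightness, where a change in transcript can be hidden.

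**Figure D1:**
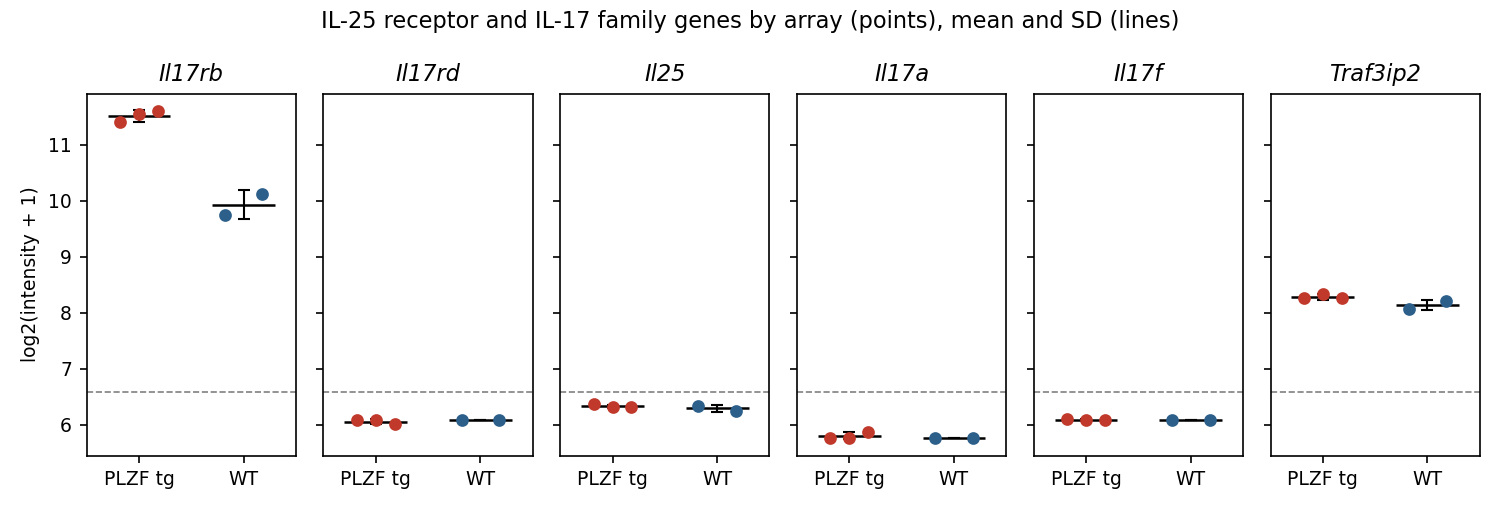
Log2(intensity + 1) of the 6 genes, with 1 panel per gene, 3 PLZF transgenic arrays at the left and 2 wild type (WT) arrays at the right of each. Points are arrays, the long line is the mean, the bars are the SD, and the dashed line is the 95th percentile of olfactory and vomeronasal receptor gene means (6.58). Il17rb stands at 11.52 against 9.93, Traf3ip2 at 8.28 against 8.14, and the other 4 genes lie below the dashed line.

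For Il17rd the 3 rows did not give the same picture. The row used here stood at 66.6 intensity units in 2 transgenic arrays and at 63.6 in the other, and at 66.6 in both wild type arrays. Its log2 difference was -0.02 ± 0.03 (SE). A row of nearly the same mean read 61.0, 57.1 and 56.9 in transgenic cells and 67.8 and 76.4 in wild type cells. In that row all 3 transgenic arrays lay below both wild type arrays, with a log2 difference of -0.30 ± 0.07 (SE). The dimmest row read 28.7, 28.7 and 30.7 in transgenic cells and 30.4 and 25.4 in wild type cells, and its groups overlapped. All 3 rows had means below the background yardstick.

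**Figure D2:**
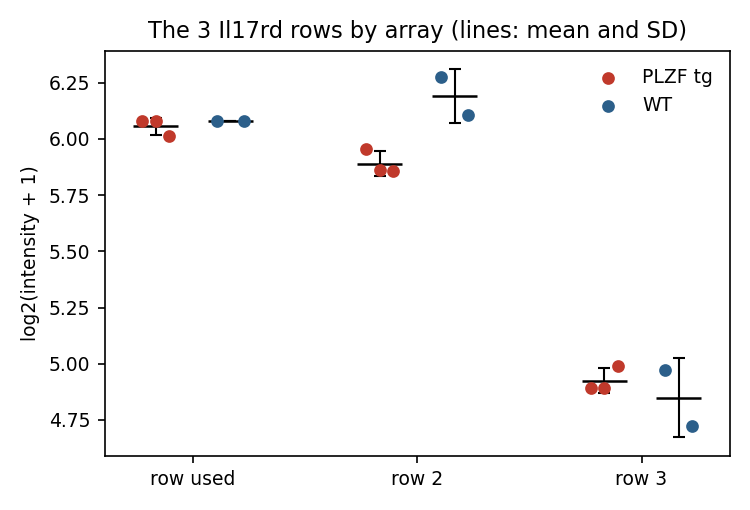
Log2(intensity + 1) of the 3 rows of Il17rd, with 3 PLZF transgenic arrays (red) left of 2 wild type arrays (blue) for each row. Points are arrays, long lines are means and bars are the SD. The second row is lower in every transgenic array (difference -0.30), whereas the row used (-0.02) and the third row (0.08) overlap.

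Across the comparison, limma with Benjamini-Hochberg adjustment over all 12267 genes called 211 genes higher and 370 lower at an adjusted p under 0.05, which is 1.72% and 3.02% of the genes. After quantile normalization of the arrays it called 525 higher and 607 lower. Of the 6 genes described here, 1 (Il17rb) was among those called higher and 0 among those called lower. The transgenic arrays were all above the wild type arrays for 2 of the 6 genes (Il17rb and Traf3ip2), against 12.6% of all genes. Il17rb was no longer called when any 1 of the transgenic arrays was left out, nor with array weights or with the replicate number as a block. Since the genes were chosen with this contrast known, these counts describe them and carry no further weight. The median log2 difference was 0.04 for the 6 genes and 0 for all genes tested.

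The position of Il17rb in the genome set it beside a gene that also differed. On chromosome 14 of the mouse assembly GRCm38.p6, it lies head to head with Chdh, which is transcribed away from it on the opposite strand. The RefSeq promoter table places the nearest start of Chdh 104 bases from that of Il17rb. Chdh encodes choline dehydrogenase, a mitochondrial enzyme that oxidises choline. The bases before the start of Il17rb are shown because they reach to the start of Chdh, and those of Il17a and Il17f are shown for contrast, as the 2 cytokine genes at a locus with little signal. Each is the strand of its gene, 250 bases up to the base before the RefSeq start, at chr14:30008897-30009146 (minus strand), chr1:20730655-20730904 (plus strand) and chr1:20784271-20784520 (minus strand). Capitals mark the matched motifs named after the sequences.
Il17rb: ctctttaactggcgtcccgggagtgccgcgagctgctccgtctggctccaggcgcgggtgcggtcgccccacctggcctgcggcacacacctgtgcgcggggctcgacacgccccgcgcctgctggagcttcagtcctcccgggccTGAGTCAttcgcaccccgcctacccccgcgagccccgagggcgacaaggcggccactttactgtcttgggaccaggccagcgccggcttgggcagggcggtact
Il17a: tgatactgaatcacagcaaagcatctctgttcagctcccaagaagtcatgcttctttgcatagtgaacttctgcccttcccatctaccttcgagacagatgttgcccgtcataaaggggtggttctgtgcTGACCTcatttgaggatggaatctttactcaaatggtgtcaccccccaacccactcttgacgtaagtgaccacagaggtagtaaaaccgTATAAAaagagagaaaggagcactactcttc
Il17f: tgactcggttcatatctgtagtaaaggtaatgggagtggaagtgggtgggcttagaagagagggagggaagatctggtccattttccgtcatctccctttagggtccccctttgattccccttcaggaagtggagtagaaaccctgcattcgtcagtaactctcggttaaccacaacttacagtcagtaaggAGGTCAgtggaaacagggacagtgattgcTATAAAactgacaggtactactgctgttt

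The motifs searched on both strands, chosen with the sequences in view, were TATAAA (the TATA box), TGAGTCA (bound by AP-1), AGATAA (bound by GATA factors) and AGGTCA (a half-site of nuclear receptors). They occurred in 12.4%, 4.46%, 9.99% and 14.0% of 32851 windows of the same length. Il17rb held TGAGTCA and none of the other 3, with its first base 104 bases before the start, at the base given as the start of Chdh. Il17a and Il17f each held TATAAA, 31 and 29 bases before the start, and AGGTCA on the minus strand in Il17a and the plus strand in Il17f. No motif overlapped another. The Il17rb window was 72.0% G and C with 27 CG pairs, Il17a 46.0% with 4 and Il17f 47.2% with 4, where the median window had 52.4% and 6. Il17rd, whose window was 54.4% G and C, held none of the 4 motifs. Promoter sequences were matched for 4 of the 6 genes.

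Chdh rose in transgenic cells beside Il17rb. Its log2 intensity was 9.47 ± 0.14 in transgenic cells (SD, n = 3) and 8.61 ± 0.08 in wild type cells (SD, n = 2), and the groups did not overlap. It was 1.81-fold higher, or 0.86 ± 0.10 (SE) on the log2 scale (limma adjusted p = 0.0469 over all genes). This call was near the threshold: it was lost when any 1 of the 5 arrays was left out, with array weights, with the replicate number as a block and with an intensity trend and robust fit, while the change stayed between 0.79 and 0.92 in every alternative run. The other measured neighbours of Il17rb did not pass. Actr8, a subunit of the INO80 chromatin remodeller, had a log2 change of 0.08 ± 0.05 (SE), Selenok, a selenoprotein of the endoplasmic reticulum, of -0.09 ± 0.04, and Cacna1d, a calcium channel gene, of 0.12 ± 0.07. The larger differences among these 5 genes were those of the 2 that lie head to head, of which Il17rb was chosen with its difference known. Whether the 2 genes are controlled together was not tested.

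**Figure D3:**
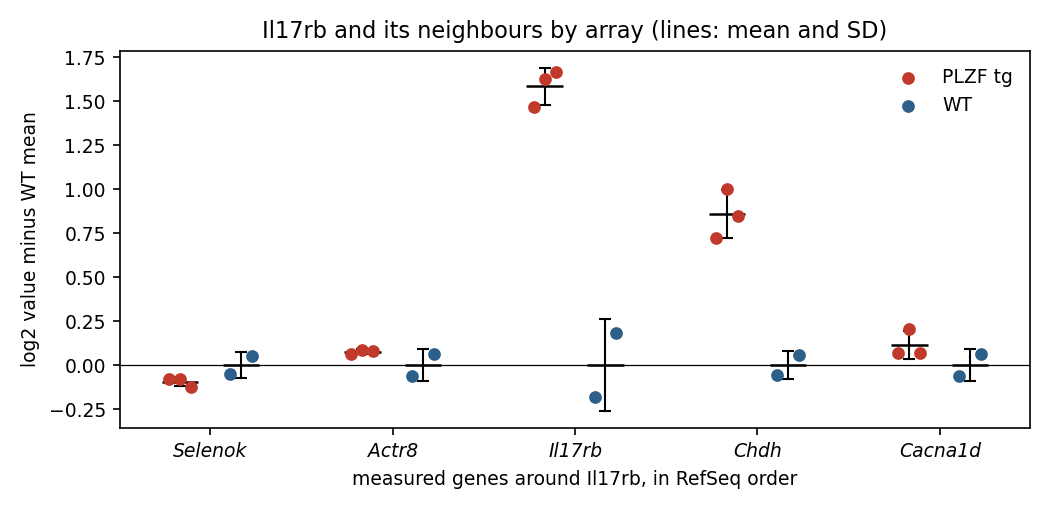
Log2 values of Il17rb and the 2 nearest measured genes on each side, in RefSeq order, each minus its wild type mean. PLZF transgenic arrays (red) stand left of wild type arrays (blue), points are arrays, long lines are means and bars are the SD. Il17rb (1.58) and Chdh (0.86) stand above their wild type arrays, and Selenok, Actr8 and Cacna1d lie within 0.12 of the wild type mean on average.

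Around the 6 genes together, 20 neighbours were measured, 2 on each side of a member or of the Il17a and Il17f pair. Of these, limma called 2 higher and 1 lower, against 1.72% higher and 3.02% lower over all genes. At an unadjusted p under 0.05, 4 of the 20 passed, where 7.07% of all genes were higher and 9.74% lower. The median log2 change of the neighbours was 0.0004. Besides Chdh, the called genes were Fyn and Ccn6, both next to Traf3ip2. Fyn, a Src family kinase of T cell receptor signalling, fell by 0.38 ± 0.02 (SE, limma adjusted p = 0.0140). Ccn6, of the CCN family of secreted proteins, rose by 0.09 ± 0.01 (SE, limma adjusted p = 0.0479) with identical values in all 3 transgenic arrays. Ccn6 was dim, with means of 6.03 in transgenic cells and 5.95 in wild type cells that lay below the background yardstick, and it did not pass after quantile normalization (limma adjusted p = 0.0802), with median centring (0.0627) or with an intensity trend and robust fit (0.0634). Each of these 2 passed in 2 of the 5 fits with 1 array left out. None of the 4 neighbours of Il17a and Il17f passed. Mcm3, a subunit of the replicative helicase and the nearest measured gene after them, had a log2 change of -0.01.

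The genes whose array profile was most like that of Il17rb were Sh3bp5, Npas2, Ly96, Prr13 and Fasl. Likeness was the root mean square difference in log2 deviation from the wild type mean over the 5 arrays, and it lay between 0.10 for Sh3bp5 and 0.14 for Fasl. Sh3bp5 encodes a mitochondrial protein that binds JNK, Npas2 a clock transcription factor, Ly96 the co-receptor of TLR4, and Fasl the Fas ligand. Their log2 differences were 1.54, 1.60, 1.70, 1.43 and 1.46, beside 1.58 for Il17rb. These genes were picked for that likeness, so their differences are a description with no test.

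Among genes that act below the receptors of this family, most were not called, and those called lay in both directions with small changes. Of 27 listed genes of IL-17 receptor signalling other than Traf3ip2, 19 were measured. Of these, limma called 1 higher, 3 lower and 15 neither, against 1.72% higher and 3.02% lower over all genes. At an unadjusted p under 0.05, 2 were higher and 5 lower, against 7.07% and 9.74% of all genes. The median log2 change of the 19 was -0.01. Of the 19, 18 had means above the background yardstick, whereas the shares over all genes take in dim genes. Traf6, the ubiquitin ligase that Act1 recruits, had a log2 change of -0.01 ± 0.01 (SE) and Traf2 of 0.05 ± 0.03, and neither passed. Traf4, another member of the TRAF family, read 8.85, 8.91 and 8.81 on the log2 scale in transgenic cells and 9.38 and 9.54 in wild type cells. Its level fell by 0.60 ± 0.06 (SE, limma adjusted p = 0.0386), and the groups did not overlap. Traf5, named after its value was known, had a log2 difference of -0.39 ± 0.06 (SE, limma adjusted p = 0.0687).

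Arid5a, an RNA-binding protein that stabilises cytokine transcripts, read 8.61, 8.61 and 8.62 on the log2 scale in transgenic cells and 9.08 and 9.17 in wild type cells. It fell by 0.51 ± 0.03 (SE, limma adjusted p = 0.0169). Nfkbiz, a nuclear IkappaB protein that IL-17 induces in other cell types, read 8.86, 8.99 and 8.94 in transgenic cells and 9.35 and 9.31 in wild type cells. It fell by 0.40 ± 0.05 (SE, limma adjusted p = 0.0472). The gene that rose was Tnip1, whose product binds the ubiquitin-editing enzyme A20 and restrains NF-kappaB, with 9.58, 9.65 and 9.65 in transgenic cells and 9.38 and 9.37 in wild type cells. Its change was 0.25 ± 0.03 (SE, limma adjusted p = 0.0370). Neither Nfkbiz nor Tnip1 passed in any fit with 1 array left out, and Traf4 and Arid5a passed in 2 of these 5 fits.

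**Figure D4:**
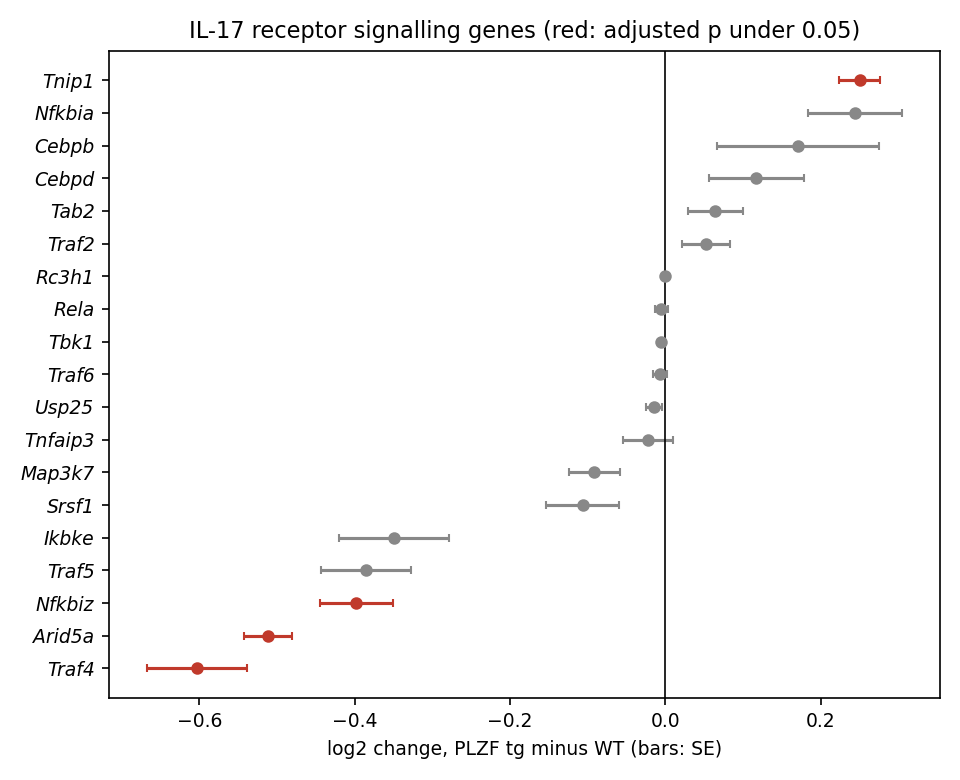
Log2 change, PLZF transgenic minus wild type, of the 19 measured genes of IL-17 receptor signalling, with 1 row per gene and bars for the SE. Red marks the 4 genes with an adjusted p under 0.05: Tnip1 (0.25), Nfkbiz (-0.40), Arid5a (-0.51) and Traf4 (-0.60). The others lie within 0.25 of 0, except Ikbke (-0.35) and Traf5 (-0.39).

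Other genes of the family and the known targets of IL-17 did not pass the test. Of 6 further family members, 2 were measured. Il17d, a cytokine of the family, had a log2 change of 0.13 ± 0.08 (SE), and Il17b of 0.12 ± 0.29. Of 15 listed IL-17 target genes, 8 were measured, and limma called 0. At an unadjusted p under 0.05, 0 of the 8 passed, where 7.07% of all genes were higher and 9.74% lower. The largest change among them was that of S100a9, a subunit of calprotectin, at 0.36 ± 0.37 (SE), and its transgenic arrays read 5.48, 5.25 and 6.26 against 5.33 and 5.29 in wild type cells on the log2 scale. These targets are best known from epithelial and stromal cells, and 1 of the 8 had a mean above the background yardstick.

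Of 22 listed genes of IL-17-producing T cells, 11 were measured, with a median log2 change of 0. Of these, limma called 1 higher, 1 lower and 9 neither, against 1.72% higher and 3.02% lower over all genes. At an unadjusted p under 0.05, 2 were higher and 2 lower, against 7.07% and 9.74% of all genes. Il6st, which encodes gp130, the signalling chain of the interleukin-6 receptor, read 9.82, 9.71 and 9.69 in transgenic cells and 11.56 and 11.64 in wild type cells on the log2 scale. It fell by 1.86 ± 0.06 (SE, limma adjusted p = 0.00812). Ahr, the aryl hydrocarbon receptor, read 7.92, 7.98 and 8.01 in transgenic cells and 7.57 and 7.53 in wild type cells. Its change was 0.42 ± 0.03 (SE, limma adjusted p = 0.0236). In the 5 fits that leave out 1 array, Il6st passed in 2 and Ahr in 1. Batf, named after its value was known, had a log2 difference of 0.47 ± 0.09 (SE, limma adjusted p = 0.115) and separate groups, and was not called. Ccr6, the chemokine receptor of Th17 cells, and Il1r1, the interleukin-1 receptor, were dim, with log2 changes of -0.14 ± 0.07 (SE) and 0. The 0 of Il1r1 comes from identical values of 4.64 in all 5 arrays. Il23r and Il22 were not analysed here.

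Among genes linked to interleukin-25 and type 2 responses, none passed the test as higher. Of 19 listed, 11 were measured, and limma called 0 higher and 1 lower over all genes, with 0 higher and 2 lower at an unadjusted p under 0.05, against 7.07% and 9.74% of all genes. The median log2 change was 0.004. Stat6, the transcription factor that transmits interleukin-4 and interleukin-13 signals, read 10.32, 10.28 and 10.28 in transgenic cells and 10.58 and 10.66 in wild type cells on the log2 scale. It fell by 0.33 ± 0.03 (SE, limma adjusted p = 0.0345) and passed in 2 of the 5 fits with 1 array left out. Il4 and Il13, type 2 cytokines, had log2 changes of 0.19 ± 0.12 and -0.14 ± 0.09 (SE), and Gata3, the transcription factor of type 2 cells, of 0.05 ± 0.03. Of the 11 genes, 5 had means above the background yardstick, and the cytokines Il4, Il5 and Il9 did not.

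Markers of other cell types that carry IL-17 family receptors or cytokines were read beside these results. For gamma-delta T cells, 2 of 5 markers were measured (Sox13 and Blk), and their mean log2 value was 7.12 to 7.14 in the transgenic arrays and 7.11 to 7.13 in the wild type arrays. Sox13 lay above the background yardstick and Blk below it. For mast cells and basophils, 4 of 6 were measured, at 4.97 to 5.08 in transgenic and 4.98 to 5.0 in wild type arrays, and none of the 4 lay above the background yardstick. For type 2 innate lymphoid cells, Arg1 was the 1 of 5 markers measured, at 5.38 to 5.40 in transgenic and 5.32 to 5.38 in wild type arrays. It too lay below the background yardstick. For myeloid and dendritic cells, 5 of 8 were measured, with lower means in the transgenic arrays, 6.70 to 6.75, than in the wild type arrays, 6.89 to 7.08. Mpeg1, Cd68 and Cd14 were lower, with log2 differences of -0.67 ± 0.30, -0.39 ± 0.09 and -0.32 ± 0.10 (SE). Those of Csf1r and Fcgr1 were 0.04 ± 0.03 and 0.06 ± 0.04 (SE), and limma called 0 of the 5. The 2 wild type arrays were far apart for Mpeg1, at 6.97 and 7.81. Of the 5, 2 lay above the background yardstick. The part of such cells, and of NKT cells, in the Il17rb difference was not tested.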

How the data were processed

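RNA of sorted CD4SP thymocytes was hybridised to Affymetrix mouse exon arrays, 3 from PLZF transgenic and 2 from wild type mice. Per the submitters' processing notes, the tools were Affymetrix Expression Console and RMA and the build was mm9, without versions. The deposited values are intensities on a linear scale, with a column for each array. Of its 65529 rows, 14011 had 1 gene symbol in the platform annotation, 864 several and 50654 none. Of the rows with 1 symbol, 13715 matched the RefSeq gene table (GRCm38.p6), which served for names and gene order. Promoter sequences are from RefSeq on that assembly.

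For each gene the row with the highest mean of log2(intensity + 1) was kept, leaving 12267 genes, dim ones included. The genotypes were compared by limma 3.58.1 (R 4.3.3; lmFit, eBayes), transgenic minus wild type. The fit had 3 residual and 0.5 prior degrees of freedom. Benjamini-Hochberg adjustment covered all genes, and the threshold was 0.05. The procedure was tested on simulated data. With 3 arrays and 2, the smallest p an exact permutation allows is 0.1, so none was run. P-values set the difference between genotypes against the spread between these arrays, whose number limits the precision. Identical values bring that spread to 0 within a genotype for some genes, such as Ccn6 in transgenic cells.

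The genes described and the lists were chosen with earlier results of these data known. Named were the genes described, list genes past the threshold with separate groups (up to 4 per direction, or the largest change where none passed), the 2 nearest measured genes on each side, and the 5 genes most like Il17rb, leaving out predicted genes. Other genes named fall outside this rule and were picked for their known roles with their values in view. Alternatives were other normalizations, pseudocounts, row and gene filters, variance settings, array weights, the replicate number as a block, another threshold and each array left out.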

Additional observations from a re-analysis of the deposited data

How the results depend on the processing

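With limma throughout, Il17rb was higher in transgenic cells in all 16 alternatives (log2 difference 1.40 to 1.77) and among the genes called in 11 of them. It was not called with array weights (1.61), with the replicate block (1.54) or when any 1 transgenic array was left out. Fits without 1 transgenic array called few genes and fits with a lone wild type array, assumed to vary like the transgenic ones, called many, so both counts move with the arrays used. With 1 array left out in turn, genes called higher ran from 2 to 1319 and lower from 2 to 1571. In these fits IL-17 receptor signalling had 0 to 2 higher and 0 to 5 lower, IL-17 target genes 0 to 1 higher, IL-17-producing T cell genes 0 to 1 higher and 0 to 2 lower, and type 2 genes 0 to 2 higher and 0 to 2 lower. Quantile normalization called 525 higher and 607 lower, with 5 lower signalling genes and 2 higher IL-17-producing T cell genes, and cyclic loess 395 and 569. A fit of only the 4027 genes with 5 different values, which held 22 of the 51 measured list genes, called 418 and 625. Among these were 5 lower signalling genes and 2 higher IL-17-producing T cell genes. An adjusted p of 0.1 gave 403 and 628. Array weights gave 1 and 0 (418 and 592 at an unadjusted p under 0.05), and 0 in every list. Trend and robust gave 0 higher and 1 lower signalling gene. The share of higher genes thus moved with the normalization. The labels give the genotypes the same replicate numbers without saying that these pair the samples. Deviations of same-numbered arrays correlated at 0.139 and 0.0485, and those of arrays with other numbers from -0.139 to 0.0915. With 2 wild type arrays, their deviations mirror each other, so these values are not independent and do not settle the pairing. The replicate block called 0 higher and 0 lower, in every list too (852 and 1065 at an unadjusted p under 0.05). With it, Il17rd and Il17a had a difference of 0. Transgenic replicate 3 has no wild type array of its number, so differences with the block equal those without that array. Il17f was -0.0017 after quantile normalization and -0.0020 after cyclic loess. With 1 array left out, Il25 ran from -0.0092 to 0.083, Il17rd from -0.033 to 0, Il17a from 0 to 0.054 and Il17f from 0 to 0.017. Of the 13 other genes called and named, Cd2, Cd5 and Cd28 included, 0 passed with array weights, with the replicate block or with any 1 transgenic array left out, and 7 passed with trend and robust. Ccn6 alone of the 13 was lost with quantile normalization and with median centring. The block and the fits without 1 array leave fewer residual degrees of freedom than the main fit. The part of this in the losses was not tested.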
